A study of Homo sapiens with 30 samples.

Results

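The genes described here encode the protein subunits of the cytosolic ribosome in 5 malignant human T-cell lines exposed to the CHOEP drugs or left untreated. A gene was a member when the array platform gave its probe a symbol of RPL or RPS and a number, with the letters A, L or X where present, or a stalk protein symbol (RPLP). RPS6K kinases, RPS27L, pseudogenes and Y-linked genes were left out. By this rule 72 genes had a probe (119 probes), 47 of the large and 25 of the small subunit, of 81 such genes in the reference annotation, and the other 9 were not analysed here. After the filter on low signals 70 members remained (45 large, 25 small, 115 probes) of 12482 genes in all. RPL10 and RPL3L did not pass it: the 2 RPL10 probes were detected above background on 0 and 1 of 30 arrays, and the RPL3L probe on 0. One of the RPL36A probes, detected on 2 arrays, was also left out.

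The cytosolic ribosome pairs a small subunit, which decodes the mRNA, with a large subunit, which joins amino acids and releases the chain through an exit tunnel. Its proteins are made in nearly equal numbers, and their mRNAs are among the most abundant of a growing cell. Most of these mRNAs begin with a cytosine inside a stretch of pyrimidines, the terminal oligopyrimidine motif, through which mTOR signalling and LARP1 adjust their translation as a group. Several ribosomal proteins also act away from the ribosome: RPL5 and RPL11, with the 5S rRNA, bind the p53 ligase MDM2, and RPL5, RPL10 and RPL22 are known as altered genes in T-cell leukaemia.

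The treated groups were cells of the JURKAT, HH, SUP-T1, HD-MAR-2 and KARPAS-299 lines given cyclophosphamide, doxorubicin, vincristine, prednisone and etoposide for 24 h at that line's own IC50, and the same line left untreated was set against it. HD-MAR-2 and JURKAT are T-cell leukaemia lines, SUP-T1 a lymphoblastic, KARPAS-299 an anaplastic large cell and HH a cutaneous T-cell lymphoma line. Each of the 10 groups had 3 replicates with 1 array each (30 arrays). Neither the sample titles nor the study's methods say whether the replicates were separate cultures. The 6 arrays of a line shared 1 chip and no chip held a second line, so line and chip cannot be told apart, and CHOEP and untreated arrays kept fixed places on every chip, so place and treatment cannot be told apart either.

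All 30 arrays correlated best with an array of their own line, and 28 of 30 with one of the same line and treatment. Between 16003 and 18239 probes per array were above background. The 9 T-cell marker genes checked were detected on all 6 arrays in SUP-T1 and HD-MAR-2, 8 of them in JURKAT, 7 in HH and 4 in KARPAS-299, where CD3E, CD3G, CD2 and LCK were on no array. ALK was detected on all 6 KARPAS-299 arrays, but TNFRSF8 (CD30), a defining marker of anaplastic lymphoma, on none. Of 6 measured markers of other blood cells, between 1 and 3 were detected on all arrays of a line and HBB on no array, and their part in the results was not tested. In bulk RNA, fewer cells and less RNA per cell cannot be told apart. Values are background-corrected, normalised log2 signals, and an effect is the log2 difference of CHOEP minus untreated with its standard error (SE), so that 1 unit is a 2-fold change. A gene was called changed at an adjusted p under 0.05 and is shown by its brightest probe unless a probe is named.

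Start regions of members that moved are printed to show the motif that these mRNAs share. In RefSeq (GRCh38.p14), 59 of the 70 members had a promoter entry, and a run of at least 6 C or T bases lay at the annotated start (overlapping 5 bases before to 10 after) in 51 of them (86.4%). Such a run was found in 14 of 65 mitochondrial ribosomal protein genes (21.5%) and in 7126 of 27305 promoters of the table (26.1%). The sequences below run from 10 bases before the start through 20 transcribed bases on the gene's own strand, with the pyrimidine run in capitals. RPL13A, RPL22, RPS23 and RPL28 were upregulated in at least 1 line, and RPS7, RPL29 and RPL36A were downregulated. RPL13 and RPS29 are shown because the annotated start used for each holds no such run. Only 1 start per gene was used, and any other annotated start of a gene was left out.
RPL13A, chr19:49487598-49487627, plus strand: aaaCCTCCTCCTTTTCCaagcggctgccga
RPL22, chr1:6199576-6199605, minus strand: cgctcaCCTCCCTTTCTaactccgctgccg
RPS23, chr5:82278335-82278364, minus strand: cggtgCTTCTCTCTTTCgctcaggcccgtg
RPL28, chr19:55385922-55385951, plus strand: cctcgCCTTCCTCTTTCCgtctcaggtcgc
RPS7, chr2:3575250-3575279, plus strand: cgCCCTCCTCCTCgcgctgtttccgcctct
RPL29, chr3:51995876-51995905, minus strand: cagCCCCTTTCTCTTCCggttctaggcgct
RPL36A, chrX:101391001-101391030, plus strand: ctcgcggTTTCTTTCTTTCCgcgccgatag
RPL13, chr16:89560647-89560676, plus strand: tgctatcatcccagagtgcattgcggggcc
RPS29, chr14:49598691-49598720, minus strand: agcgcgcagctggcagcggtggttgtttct
The run is present in upregulated and downregulated members alike. Over the 5 lines on average, 8 of the 51 members with a run were upregulated and 3 downregulated, with a median effect of 0.03. Of the 8 members without a run, 2 were upregulated and 0 downregulated, with a median of 0.07. Both stand beside 17.8% of all genes upregulated and 20.1% downregulated.

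The called members lay mostly in SUP-T1 and HD-MAR-2. Most member estimates in these lines were small and above 0, at 56 of 70 in SUP-T1 and 52 of 70 in HD-MAR-2, beside 5966 and 6091 of the 12482 genes. In HD-MAR-2, 12 of 70 members were upregulated (RPL10L, RPL13, RPL13A, RPL14, RPL22, RPL23A, RPL28, RPL35A, RPL36AL, RPL37, RPS9 and RPS23) and 4 downregulated (RPL36A, RPL39L, RPS6 and RPS7), beside 14.9% and 15.8% of all genes. In SUP-T1, 8 were upregulated (RPL13, RPL13A, RPL22, RPL23A, RPL35A, RPL37, RPS23 and RPS28) and 3 downregulated (RPL29, RPL39L and RPS7), beside 12.3% and 13.9%. Of the members, 11.4% were thus upregulated and 4.29% downregulated in SUP-T1, and 17.1% and 5.71% in HD-MAR-2, so that the upward share lay near that of all genes and the downward share below it. Without SUP-T1 CHOEP replicate 3 that line had 7 called members in place of 11.

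In the other lines few members were called. KARPAS-299 had 1 upregulated member, RPS23, and 0 downregulated, beside 2.8% and 4.02% of all genes. HH had 0 upregulated and 3 downregulated, RPS7, RPL29 and RPL36A, beside 9.89% and 9.64%. JURKAT had 0 in either direction by limma, beside 0.12% and 0.024%. At an unadjusted p under 0.05 it had 2 members, beside 786 of the 12482 genes. Over the 5 lines on average 13 members were upregulated and 4 downregulated, beside 17.8% and 20.1%. In all, 52 members were called in no line and 11 in at least 2, beside 5639 and 2751 of the 12482 genes.

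The median effect over the 70 members was 0.09 in SUP-T1, 0.11 in HD-MAR-2, 0.03 in HH, 0.0055 in JURKAT and -0.00057 in KARPAS-299, beside medians over all genes between -0.01 and 0.0076. Medians and calls moved with the normalisation. In median scaling, background-corrected signals were scaled to the median of all probes of an array, whether above background or not. The member median minus that of all genes was then 0.23 in SUP-T1, 0.27 in HD-MAR-2, 0.12 in HH and -0.10 in KARPAS-299. Members called upwards and downwards numbered 2 and 4 for SUP-T1, 4 and 5 for HD-MAR-2 and 4 and 4 over the 5 lines. Under that scaling the median of all genes was -0.18 for SUP-T1, -0.20 for HD-MAR-2 and -0.11 over the 5 lines. When the array median was taken only over probes above background on every array, an alternative chosen after seeing the data, 24 members were called upwards and 3 downwards for SUP-T1, 31 and 3 for HD-MAR-2 and 27 and 4 over the 5 lines, with member medians of 0.35, 0.38 and 0.15 and all-gene medians of 0.12, 0.11 and 0.05. An effect of at least 2-fold that passed the test was found for 1 member, RPL13A in SUP-T1, where 2.4% of all genes had one. The other lines had 0 such members, beside 3.66% of all genes in HD-MAR-2, 2.78% in HH, 1.3% in KARPAS-299 and 0.0481% in JURKAT, as did the average over lines (0.264%). In the plot of effects by line, that gene is the highest point.

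**Figure D1:**
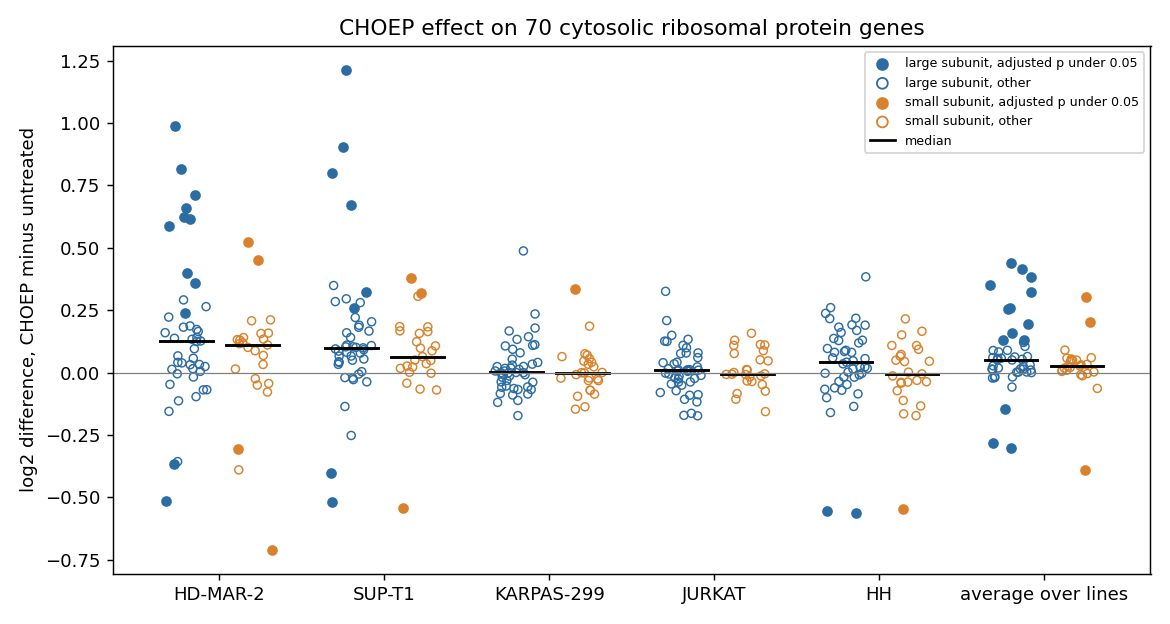
Log2 difference of CHOEP minus untreated for each of the 70 members (y axis) in each line and on average (x axis), large subunit left and small subunit right, with filled points at an adjusted p under 0.05 and a bar at the median. The points scatter most in HD-MAR-2 and SUP-T1, where single genes stand away from medians of 0.11 and 0.09, while KARPAS-299 and JURKAT points gather near 0.

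RPL13A, a large-subunit protein that in human myeloid cells also joins an inhibitor complex of interferon-regulated translation, had the largest effect of any member by its brightest probe. Its log2 signal in SUP-T1 was 14.24, 14.27 and 14.19 with CHOEP against 12.81, 13.15 and 13.09 untreated, and in HD-MAR-2 14.34, 14.35 and 14.38 with CHOEP against 13.58, 13.86 and 13.76 untreated. In both lines every CHOEP array lay above every untreated one. The difference was 1.21 in SUP-T1 (SE 0.0974, 2.32-fold, adjusted p = 7.33e-10) and 0.62 in HD-MAR-2 (SE 0.0974, 1.54-fold, adjusted p = 2.17e-05). In HH, CHOEP arrays at 14.52, 14.51 and 14.43 also lay above the untreated 14.34, 14.41 and 14.36, but that difference of 0.12 did not pass the test. RPL13A is one of the genes that the study itself chose on these samples, as is RPS29, so neither is independent evidence.

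RPL22 binds RNA on and off the ribosome, and in mice its loss blocks development of alpha-beta T cells. In SUP-T1, which had the lowest untreated level, it measured 12.19, 12.23 and 12.24 with CHOEP against 11.25, 11.29 and 11.42 untreated, a difference of 0.90 (SE 0.0928, adjusted p = 5.63e-08). In HD-MAR-2 it measured 13.27, 13.48 and 13.43 with CHOEP against 12.99, 13.11 and 12.90 untreated, a difference of 0.40 (adjusted p = 0.00191). With median scaling the SUP-T1 effect was 0.53 and still called, and the HD-MAR-2 effect was 0.16 and not called (adjusted p = 0.492). The groups did not overlap in either line. They did not overlap in JURKAT (0.21) or HH (0.17) either, with CHOEP higher, although neither difference was called.

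RPS23, a small-subunit protein at the decoding centre, was upregulated in 3 lines, more than any other member. Its signals were 12.31, 12.26 and 12.34 with CHOEP against 11.84, 11.86 and 11.65 untreated in HD-MAR-2, and 12.88, 13.16 and 12.83 with CHOEP against 12.50, 12.68 and 12.55 untreated in SUP-T1. In KARPAS-299 they were 11.92, 11.97 and 11.94 with CHOEP against 11.57, 11.62 and 11.64 untreated. CHOEP and untreated arrays were separate in all 3 lines, with differences of 0.52 (adjusted p = 0.000101), 0.38 (adjusted p = 0.00346) and 0.33 (adjusted p = 0.0264). With median scaling none of the 3 was called, at 0.06 for SUP-T1 (adjusted p = 0.848), 0.21 for HD-MAR-2 (adjusted p = 0.364) and 0.21 for KARPAS-299 (adjusted p = 0.693). The KARPAS-299 call was also lost with the replicate block and when any 1 of that line's 6 arrays was left out, and the SUP-T1 call when the line was fitted alone (adjusted p = 0.138).

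RPL28 and RPL37 of the large subunit, each read by a probe of moderate brightness, were among the members with the largest effects in HD-MAR-2. RPL28 measured 9.43, 9.62 and 9.69 with CHOEP against 8.91, 8.72 and 8.98 untreated, a difference of 0.71 (SE 0.11, adjusted p = 1.94e-05), while in KARPAS-299 its CHOEP arrays, at 7.02, 7.26 and 7.15, overlapped with the untreated 7.34, 7.36 and 7.24. RPL37 measured 9.80, 9.61 and 9.58 with CHOEP against 8.86, 8.73 and 8.96 untreated in HD-MAR-2, and 8.39, 8.55 and 8.11 against 7.63, 7.64 and 7.77 in SUP-T1. Both RPL37 differences passed the test (0.81, adjusted p = 0.0035, and 0.67, adjusted p = 0.0168), but neither did with median scaling (0.51 and 0.50, adjusted p = 0.126 and 0.146). The SUP-T1 call of RPL37 was also lost with the mean of its probes (0.31, adjusted p = 0.0582) and without CHOEP replicate 2 (adjusted p = 0.0682). RPL28 had 0.41 in HD-MAR-2 with median scaling (adjusted p = 0.0482).

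RPL13, a large-subunit protein, was upregulated by its brighter probe to 12.28, 12.40 and 12.03 with CHOEP in SUP-T1, against 11.26, 11.63 and 11.42 untreated (0.80, adjusted p = 3.33e-05). In HD-MAR-2 that probe gave 12.83, 12.69 and 12.74 with CHOEP against 12.08, 12.15 and 12.26 untreated (0.59, adjusted p = 0.000878). With median scaling the RPL13 effects were 0.43 in SUP-T1 and 0.31 in HD-MAR-2, neither called (adjusted p = 0.0944 and 0.228). The second RPL13 probe did not follow it in SUP-T1, as described with the other probe pairs.

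RPL23A, which sits at the tunnel exit, had an effect of 0.61 in HD-MAR-2 (adjusted p = 0.000287). Its SUP-T1 effect of 0.32 was at the threshold (adjusted p = 0.0493), and 22 of 30 fits that left out 1 array lost the call. RPL14, also of the large subunit, measured 11.34, 11.74 and 11.50 with CHOEP in HD-MAR-2 against 11.11, 10.87 and 10.63 untreated, without overlap (0.66, adjusted p = 0.000643). With median scaling neither gene was called in HD-MAR-2, with 0.28 for RPL23A (adjusted p = 0.291) and 0.32 for RPL14 (adjusted p = 0.187), and RPL23A in SUP-T1 was -0.021. The other called members, named to complete the counts after their values were seen, had smaller effects. RPS9 had 0.45 in HD-MAR-2. RPL35A was called in HD-MAR-2 (0.24) and SUP-T1 (0.26), and RPS28 in SUP-T1 (0.32). RPL7 (0.16) and RPL10A (0.13) passed in the average over lines and in no single line.

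The downregulated members were fewer, and 4 of them (RPS7, RPL29, RPL36A and RPL39L) were called in more than 1 line. RPS7, a small-subunit protein that can bind MDM2 and is mutated in Diamond-Blackfan anaemia, was the member with the largest fall. In HD-MAR-2 it measured 9.16, 9.36 and 9.47 with CHOEP against 9.71, 10.13 and 10.29 untreated, in SUP-T1 10.58, 10.83 and 10.84 with CHOEP against 11.06, 11.19 and 11.62 untreated, and in HH 11.37, 11.51 and 11.50 with CHOEP against 12.01, 11.87 and 12.13 untreated. The groups were separate in all 3 lines, with effects of -0.71 (adjusted p = 0.000638), -0.54 (adjusted p = 0.00808) and -0.55 (adjusted p = 0.00992). A second RPS7 probe gave -0.97, -0.57 and -0.53 in the same order of lines, each called. The SUP-T1 call of the brighter RPS7 probe was lost without untreated replicate 3 (adjusted p = 0.0823) and with the line fitted alone (adjusted p = 0.087), and the HH call without untreated replicate 3 (adjusted p = 0.0519). In KARPAS-299 the RPS7 effect was -0.01, with overlapping arrays.

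RPL29, a large-subunit protein also known as a heparin-binding protein at the cell surface, measured 11.33, 11.33 and 11.42 with CHOEP in HH, against 11.85, 11.97 and 11.95 untreated. In SUP-T1 it measured 10.15, 10.11 and 9.86 with CHOEP against 10.45, 10.67 and 10.56 untreated. Both pairs of groups were separate (-0.56, adjusted p = 0.00599, and -0.52, adjusted p = 0.00843), and the other RPL29 probe was called in the same lines (-0.55 and -0.45) and in HD-MAR-2 (-0.42). Without CHOEP replicate 3 the SUP-T1 call of the brighter RPL29 probe was lost (-0.43, adjusted p = 0.0573), as it was with the line fitted alone (adjusted p = 0.0515). With median scaling the SUP-T1 effects were larger in size and called, at -0.82 for RPL29 and -0.86 for RPS7, as was RPL36A for HD-MAR-2 at -0.79.

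RPL36A, a large-subunit protein at the tRNA exit site, measured 9.34, 9.66 and 9.38 with CHOEP in HD-MAR-2 against 9.82, 10.10 and 10.01 untreated, and 9.70, 9.86 and 9.71 with CHOEP in HH against 10.37, 10.19 and 10.37 untreated. CHOEP arrays were below untreated arrays in both lines (-0.52, adjusted p = 0.0032, and -0.55, adjusted p = 0.00258), and also in SUP-T1, where the effect of -0.25 was not called. RPS6, the substrate of the S6 kinases, measured 15.47, 15.28 and 15.43 with CHOEP in HD-MAR-2 against 15.81, 15.57 and 15.72 untreated (-0.31, adjusted p = 0.0402). The second RPS6 probe measured 14.92, 15.06 and 15.04 with CHOEP against 15.00, 14.74 and 14.90 untreated, which overlapped (0.13, adjusted p = 0.458). The RPS6 call was lost with the mean of both probes (-0.09), with the deposited normalised values (-0.20), with either median scaling (-0.20, and 0.10 over probes above background on every array) and without CHOEP replicate 2 or 3 or untreated replicate 1 or 3 of the line.

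**Figure D2:**
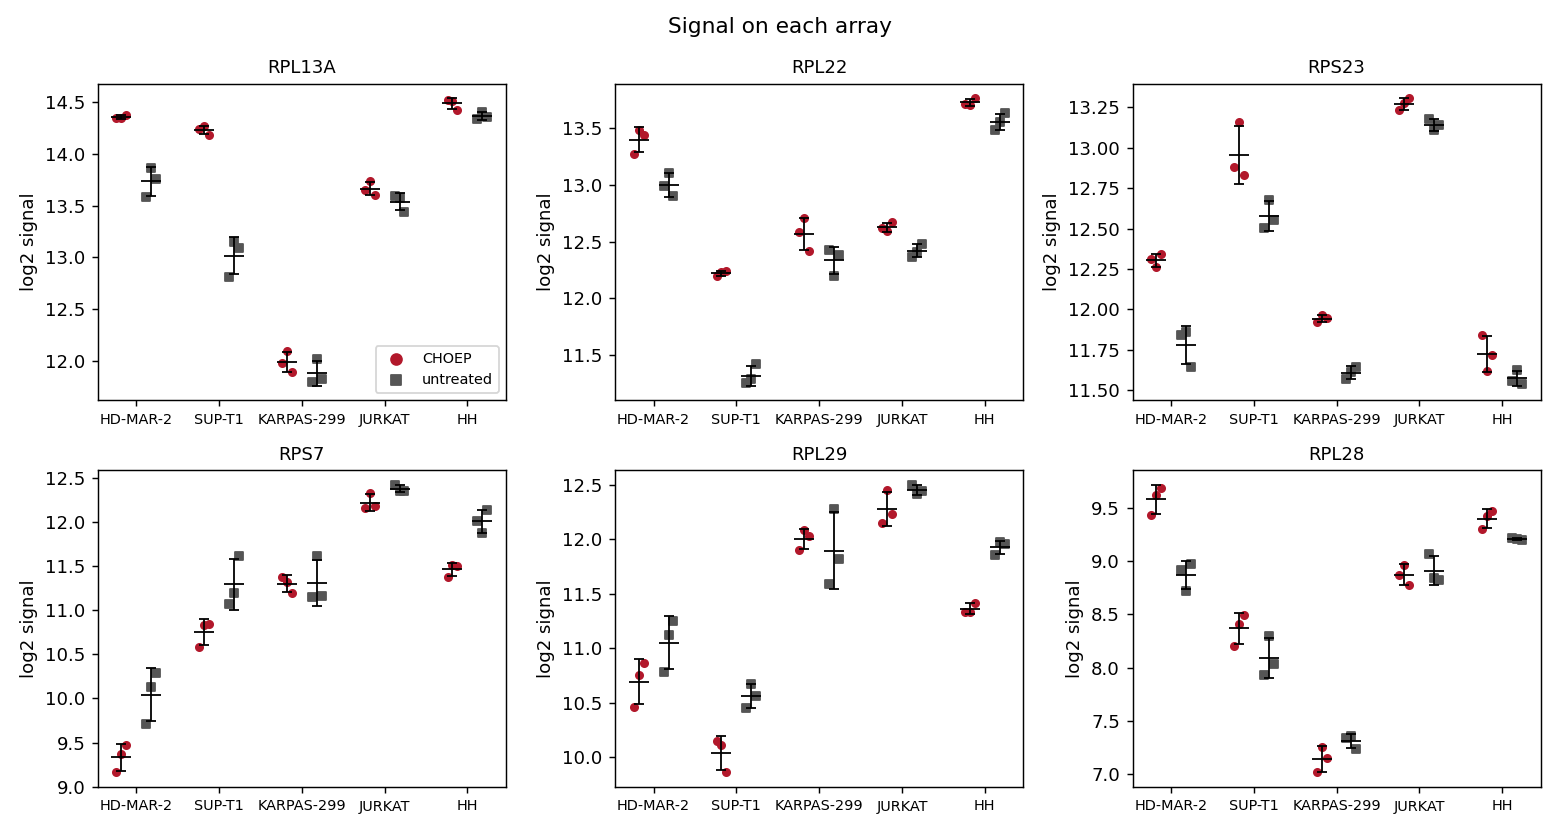
Normalised log2 signal of 6 members (y axis, own scale in each panel) on every array by line (x axis), with CHOEP as circles left and untreated as squares right of each position, and the mean and SD of 3 arrays. CHOEP arrays lie above untreated ones for RPL13A, RPL22 and RPS23 and below them for RPS7 in HD-MAR-2 and SUP-T1.

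The CHOEP effect itself differed between lines for 10 of the 70 members (F test across the 5 effects, adjusted p under 0.05), beside 35.1% of all genes: RPL13A, RPL22, RPL28, RPL14, RPL39L, RPL10L, RPL13, RPS7, RPL36A and RPL29. RPL13A had the smallest adjusted p (7.11e-07), with effects of 1.21 in SUP-T1 and 0.62 in HD-MAR-2 but 0.12 in HH, 0.13 in JURKAT and 0.11 in KARPAS-299. RPL22 followed (adjusted p = 0.00037). Of the 10, 9 were large-subunit genes, and without HD-MAR-2 untreated replicate 2 the count was 6. For RPS23 the F test did not pass (adjusted p = 0.0811), so its lines were not shown to differ. Estimates pointed upwards in all 5 lines for 11 members and downwards in all 5 for 2, together 18.6% of members beside 15.7% of all genes.

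Large and small subunits were set side by side by counts and medians, with no test over the lists. Averaged over lines, 11 of 45 large-subunit members were upregulated and 3 downregulated, against 2 and 1 of 25 small-subunit members. SUP-T1 had 6 up and 2 down for the large subunit against 2 and 1 for the small one, and HD-MAR-2 had 10 and 2 against 2 and 2. The medians lay close together, at 0.12 for the large and 0.11 for the small subunit in HD-MAR-2 and 0.10 and 0.06 in SUP-T1. The large subunit is 45 of the 70 members. On average 24.4% of its members were upregulated and 6.67% downregulated, against 8.0% and 4.0% of the small subunit, beside 17.8% and 20.1% of all genes. The only KARPAS-299 call was of the small subunit. In every line the medians of the subunits were within 0.05 of each other. Of the 8 proteins listed for the exit tunnel and its rim, 1 was upregulated on average, RPL23A, and 0 downregulated, beside the same shares of all genes.

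Brightness ran along with these differences. The members' brightest probes had a median raw signal of 32382, and 36 of 70 lay in the brightest 1% of the probes tested and 64 in the brightest 10%. The highest signal on an array was between 51506 and 63866. These cut points were set after the values were seen, and a probe's brightness is not a measure of mRNA number.

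Within the brightest 1% the effects averaged over lines ran from -0.06 to 0.13, and 1 of 36 genes was upregulated and 0 downregulated. Among the 28 members between the 90th and 99th percentile they ran from -0.15 to 0.44, with 9 upregulated and 1 downregulated. Among the 6 dimmer members (RPL10L, RPL28, RPL29, RPL36A, RPL37 and RPS7) they ran from -0.39 to 0.35, with 3 up and 3 down. Of the small-subunit members 16 of 25 were in the brightest 1%, against 20 of 45 of the large subunit. Over all genes 17.8% were upregulated and 20.1% downregulated on average. Shares by brightness were taken for the members only, so whether other bright genes were called as seldom is not known. These values were taken only after quantile normalisation, which gives every array the same distribution of signals. A change shared by most of the brightest probes would then show only in part, and its size was not tested. Whether bright signals were compressed was not tested either.

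**Figure D3:**
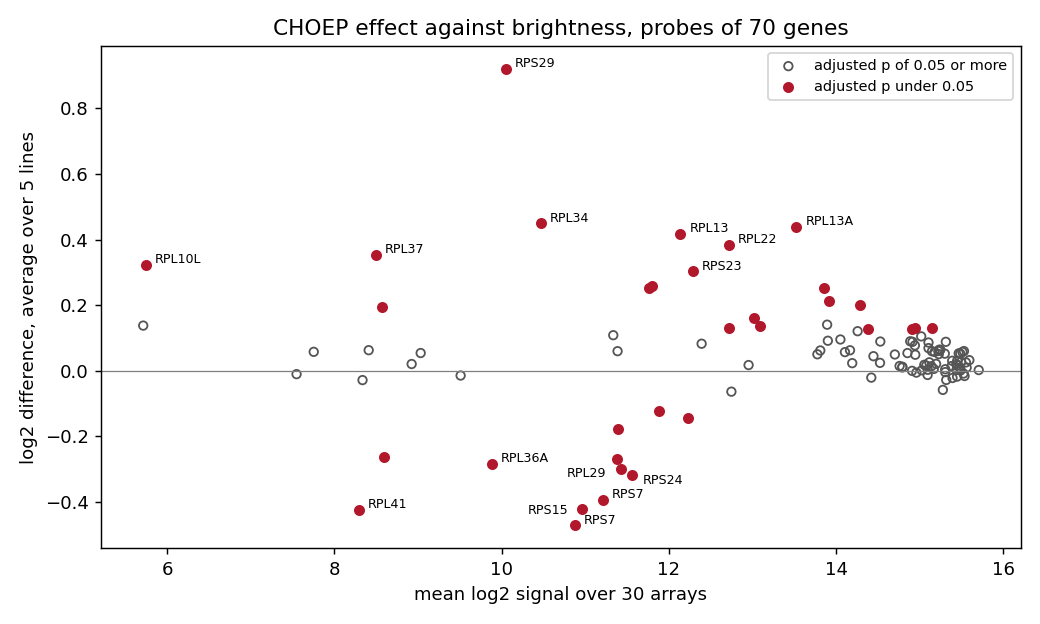
CHOEP effect averaged over the 5 lines (y axis, log2) against the mean log2 signal over 30 arrays (x axis) for all kept member probes, filled where the adjusted p was under 0.05. The cloud narrows towards the right, where the brightest probes sit between -0.06 and 0.13, and the dim RPS29 probe is the highest point at 0.92.

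Probes of the same gene could be compared in 33 members (59 pairs), by testing the within-array difference of their log2 signals. On average over lines 9 of 59 pairs (15.3%) had unequal CHOEP effects, beside 7.21% of 5981 pairs over all genes. The unequal pairs came from 6 of the 33 members, RPL13, RPL34, RPL41, RPS15, RPS24 and RPS29. Pairs that share a probe are not independent. The number of genes with an unequal pair was taken for the members only. In SUP-T1 there were 9 unequal pairs from 5 genes (beside 4.9%), in HD-MAR-2 8 from 5 genes (beside 6.72%), in HH 2 (beside 2.49%), and in KARPAS-299 and JURKAT 0 (beside 0.635% and 0.0669%). The dimmer probe of a pair had the effect of larger size in 43 of 59 pairs and in 8 of the 9 unequal ones on average. That share was not taken over the pairs of all genes, so it cannot be called particular to the members. RPL14 (0.66 at the brighter and 0.24 at the dimmer probe in HD-MAR-2) and RPL6 (-0.37 at its dimmest probe in SUP-T1, a gene named after its values were seen) were unequal in 1 line each. Probe sequences were not used here, so which transcript each probe reads is not known.

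RPS29, a small zinc-binding protein of the small-subunit head, was the clearest case, with 4 probes. The dimmest (ILMN_2298818, median raw signal 1293) measured 12.57, 12.41 and 12.39 with CHOEP in SUP-T1 against 10.65, 10.71 and 10.52 untreated, and 10.05, 10.66 and 10.72 with CHOEP in HD-MAR-2 against 9.01, 9.29 and 8.78 untreated. The effects were 1.83 (SE 0.17, 3.56-fold, adjusted p = 9.33e-09) and 1.45 (2.73-fold, adjusted p = 3.14e-07). The brightest RPS29 probe (ILMN_1694742, median raw signal 49038) measured 15.38, 15.29 and 15.65 with CHOEP in SUP-T1 against 15.12, 15.37 and 15.77 untreated, with an effect of 0.02. The other 2 bright probes had effects of -0.0015 and 0.01 there. The difference between the brightest and the dimmest probe was -0.91 on average over lines (SE 0.0951, adjusted p = 1.86e-07).

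RPL34 and RPS15 showed the same kind of split in opposite directions. The dimmer RPL34 probe measured 10.56, 10.66 and 11.05 with CHOEP in SUP-T1 against 9.55, 9.71 and 9.50 untreated (1.17, 2.25-fold, adjusted p = 1.32e-06), and the arrays of the brighter one overlapped (0.18, adjusted p = 0.29). RPS15, of the small-subunit head, fell at its dimmest probe to 9.56, 9.89 and 9.57 with CHOEP in SUP-T1, against 10.27, 10.39 and 10.37 untreated (-0.67, adjusted p = 0.000293). Its brightest probe measured 15.51, 15.29 and 15.55 with CHOEP there against 15.18, 15.15 and 15.48 untreated (0.18, not called). The dim RPS15 probe was also called downwards in HD-MAR-2 (-0.61) and HH (-0.59).

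RPL13 was the one member with 2 probes called in opposite directions in the same line. In SUP-T1 the dimmer probe measured 8.32, 8.45 and 8.07 with CHOEP against 8.59, 8.80 and 8.85 untreated (-0.46, adjusted p = 0.00328), while the brighter rose by 0.80. In HH the dimmer probe measured 7.80, 7.90 and 7.79 with CHOEP against 8.32, 8.31 and 8.41 untreated (-0.51, adjusted p = 0.00174), against 0.26 for the brighter. In HD-MAR-2 both probes were called upwards (0.50 at the dimmer and 0.59 at the brighter one), and in KARPAS-299 only the dimmer (0.43, adjusted p = 0.0167).

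The 2 remaining genes fell at their dimmer probe only. RPL41, among the shortest known proteins, had an effect of -0.42 at the dimmer and 0.0021 at the brighter probe on average over lines. The dimmer probe was called in HD-MAR-2, KARPAS-299 and HH. RPS24, whose transcripts differ by alternative last exons, had -0.32 at the dimmer and 0.05 at the brighter one. Counting a gene as changed when any of its probes was called, 20 members were upregulated and 9 downregulated on average, beside 19.3% and 22.7% of all genes, in place of 13 and 4. A gene with more probes has more occasions to be called, so these shares are not like for like. At least 2 kept probes were found for 33 of 70 members and for 3558 of 12482 genes. RPS7, RPL29 and RPS9 gave the same call with either of their probes on average.

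**Figure D4:**
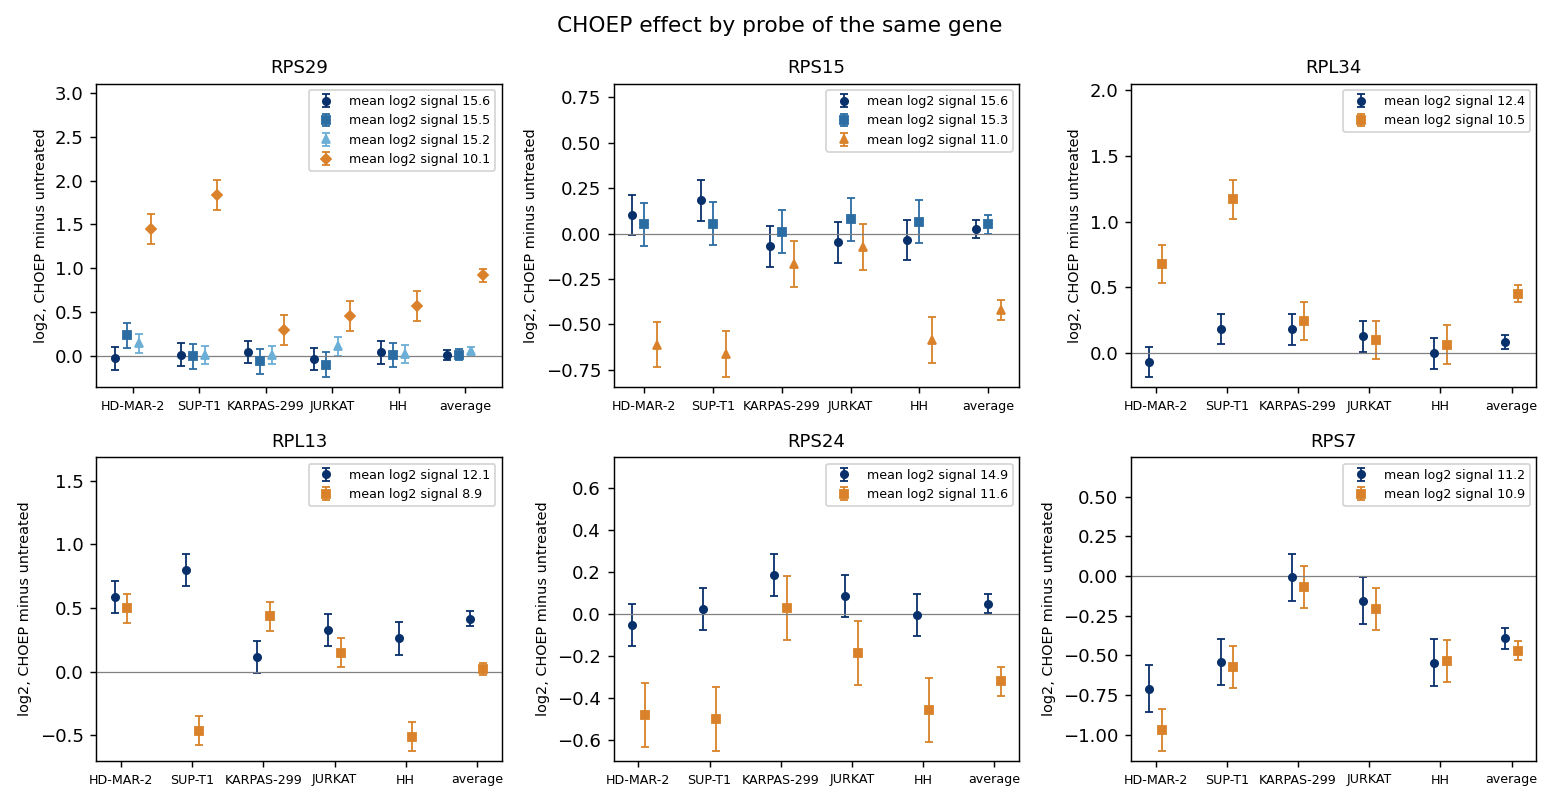
CHOEP effect with its standard error (y axis, log2) for each probe of 6 members, by line and on average (x axis), brighter probes in blue and the dimmest in orange. The RPS29 probe of lowest signal stands at 1.83 in SUP-T1 while the other 3 stay near 0, and the 2 RPS7 probes lie together.

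For 6 further members, known for functions beyond translation or from disease, the average effect was not called. RPL5 and RPL11, the carriers of 5S rRNA, had average effects of 0.02 (95% interval -0.06 to 0.11) and 0.09 (-0.0095 to 0.19). The stalk proteins RPLP1 and RPLP2, which recruit the elongation factors, had 0.03 (-0.07 to 0.13) and 0.06 (-0.05 to 0.17). RPS14, lost with part of its chromosome in a form of myelodysplasia, had -0.0042 (-0.09 to 0.08), and RPS19, the gene most often mutated in Diamond-Blackfan anaemia, 0.06 (-0.05 to 0.17). The intervals do not show that the genes were unchanged. RPL11 had 0.22 and was called (adjusted p = 0.0189) when arrays were scaled by the median over probes above background on every array. Of 17 tested genes of Diamond-Blackfan anaemia 1 was upregulated on average, RPL35A, and 1 downregulated, RPS7, beside 17.8% and 20.1% of all genes.

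The paralogues, made from duplicated or retrocopied genes and often restricted to few tissues, behaved unlike each other. RPL39L, a copy of the tunnel protein RPL39 known from testis, measured 11.40, 11.46 and 11.44 with CHOEP in HD-MAR-2 against 11.83, 11.71 and 11.86 untreated (-0.37, adjusted p = 0.0183), and 11.29, 11.27 and 11.61 with CHOEP in SUP-T1 against 12.02, 11.72 and 11.65 untreated (-0.40, adjusted p = 0.0117). The HD-MAR-2 call of RPL39L was lost with the replicate block (adjusted p = 0.0606) and without CHOEP replicate 1, untreated replicate 1 or untreated replicate 3, and the SUP-T1 call with the line fitted alone (adjusted p = 0.153) and without CHOEP replicate 1, CHOEP replicate 2 or untreated replicate 1. In HH it went the other way, with 12.40, 12.56 and 12.31 with CHOEP above 12.30, 12.05 and 12.27 untreated (0.22, not called), and its second probe was called there (0.44, adjusted p = 0.00335). RPL36AL, a copy of RPL36A, had an effect of 0.36 in HD-MAR-2 (adjusted p = 0.0163), where RPL36A had -0.52. The RPL36AL call was lost with median scaling (0.22, adjusted p = 0.212), with the line fitted alone (adjusted p = 0.0594) and without CHOEP replicate 2 (adjusted p = 0.056) or untreated replicate 1 (adjusted p = 0.102). With median scaling the RPL39L falls were larger, at -0.71 for SUP-T1 and -0.65 for HD-MAR-2. Whether a probe also hybridised with a near-identical copy was not tested.

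RPL10L, a copy of RPL10 known from the male germ line in mice, was near background, with 8 of 30 arrays above it. It measured 6.69, 6.94 and 7.0 with CHOEP in HD-MAR-2, detected on 3 of 3 arrays, against 5.92, 5.38 and 6.35 untreated, detected on 1 of 3. The difference was 0.99 (SE 0.197, adjusted p = 0.000395), and the groups did not overlap. Its size depended on the background correction, with 0.54 without it and 0.48 in the deposited normalised values, both called. It was detected on 0 arrays of JURKAT and HH. Also measured outside the rule were the ribosomal protein-like genes RPL7L1, RPL22L1, RPL26L1 and RPS27L, and FAU, a ribosomal protein fused to a ubiquitin-like domain. Of these, 1 was upregulated on average, RPL7L1 (0.18, adjusted p = 0.0282), and the others were not called on average. In HD-MAR-2 RPL22L1 was downregulated (-0.50, adjusted p = 0.00986), and the effects of RPL22L1 (adjusted p = 0.047) and RPS27L (adjusted p = 0.0251) differed between lines by the F test. RPL7L1 was upregulated in HD-MAR-2 (0.46, adjusted p = 0.0164).

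Untreated levels separated the lines more than CHOEP did, with 55 of 70 members differing between lines (F test), beside 95.5% of all genes. The gap between the lowest and the highest line had a median of 0.50 log2 units over the members and exceeded 1 unit in 16. RPL13A spanned 2.49 units, with 11.80, 12.02 and 11.82 in KARPAS-299, then SUP-T1, JURKAT and HD-MAR-2, and 14.34, 14.41 and 14.36 in HH. JURKAT (13.59, 13.58 and 13.44) and HD-MAR-2 (13.58, 13.86 and 13.76) overlapped, and all other neighbours in that order were separate.

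RPL22 was lowest in SUP-T1 (11.25, 11.29 and 11.42), followed by overlapping KARPAS-299 and JURKAT arrays, and highest in HH (13.49, 13.55 and 13.63). RPS7 was lowest in HD-MAR-2 (9.71, 10.13 and 10.29) and highest in JURKAT (12.42, 12.35 and 12.35). KARPAS-299 was the lowest line for 24 of the 70 members. Chip and line coincide in these values, so a chip effect cannot be told apart from a line's own level.

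**Figure D5:**
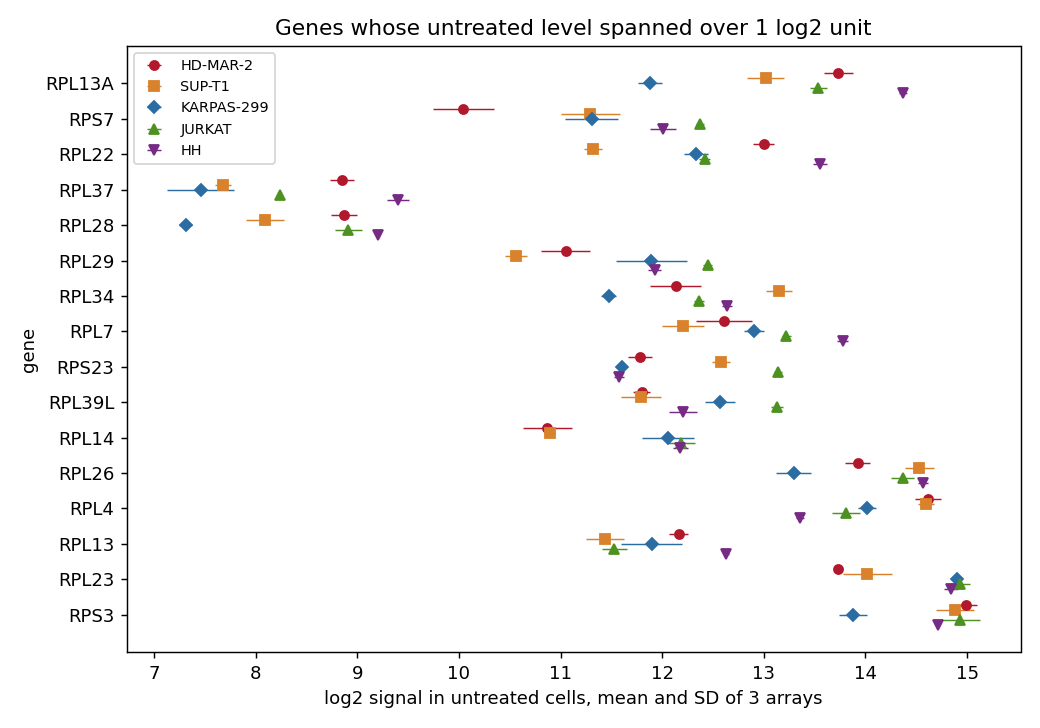
Mean log2 signal and SD of 3 untreated arrays (x axis) in each of the 5 lines for the 16 members (y axis) whose lowest and highest lines differed by over 1 unit. RPL13A, at the top, runs across 2.49 units, with KARPAS-299 lowest and HH highest.

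Genes that share the motif, the regulation or the assembly of the ribosome gave a mixed picture on average over lines, beside the 17.8% of all genes up and 20.1% down. Of 23 translation factors and other oligopyrimidine mRNAs 4 were upregulated and 3 downregulated (median 0.02), beside 13 and 4 of the 70 members. Of 10 noncoding or small host genes of snoRNAs with such transcripts 6 were upregulated and 1 downregulated (median 0.25), with EPB41L4A-AS1 at 0.55, SNHG5 at 0.41 and ZFAS1 at 0.40. Of 73 mitochondrial ribosomal protein genes 6 were upregulated and 18 downregulated (median -0.05), and of 20 chaperones and assembly factors of ribosomal proteins 0 and 9 (median -0.10), with BYSL at -0.49 and TSR1 at -0.38. In KARPAS-299 that last list had 3 up, 0 down and a median of 0.14, beside 2.8% and 4.02% of all genes.

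Of 17 genes that regulate translation of ribosomal protein mRNAs 3 were upregulated and 4 downregulated. DDIT4, an inhibitor of mTOR complex signalling, had by far the largest of these effects, 2.10 on average over lines, and was called in every line but KARPAS-299 (0.17). The study itself also chose DDIT4 as upregulated on these samples, so it is not independent evidence. EIF4E, the cap-binding protein, had -0.33 on average. Of 7 genes of the 5S particle and the p53 axis 0 were upregulated and 1, CDKN1A, was downregulated (-1.05).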

How the data were processed

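RNA of 30 samples was hybridised to Illumina HumanHT-12 arrays. The deposited probe intensity values and detection p-values came from BeadStudio (version 3 per the labels) without normalisation, and the authors' deposited log2 values, made with lumi (robust spline normalisation), served as an alternative. Intensities were corrected and quantile normalised with neqc (offset 16) in limma 3.58.1 (R 4.3.3). A probe was tested if 3 or more arrays gave it a detection p below 0.01 (22652 of 47323 with values). Of all probes with values 30113 had 1 gene symbol in the platform annotation, 8 had several and 17202 had none. limma fitted 10 group means (20 residual degrees of freedom), with Benjamini-Hochberg adjustment over all kept probes, and pairs of probes were fitted as within-array differences. The labels give no pairing of replicates, so p-values measure the spread between arrays, and the number of arrays limits precision. Members and lists were chosen with earlier results of these data known. Named genes were those fixed by function or as paralogues, up to 8 called members with the largest change in each direction on average and up to 3 in each line, the 6 with the smallest p of each F test (CHOEP effect, untreated level) and of the probe pair test, and up to 3 of each list. Same-numbered arrays deviated together in 3 of 15 pairs, so numbers were not used as pairs. The fit was tested on simulated data. Probe and protein sequences were not used here.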

Additional observations from a re-analysis of the deposited data

Results flagged for a closer look

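For 10 named members the CHOEP effect differed between the 5 lines by the F test, with adjusted p-values of 7.11e-07 for RPL13A, 0.00037 for RPL22, 0.000755 for RPL28, 0.0151 for RPL14, 0.0185 for RPL39L, 0.0194 for RPL10L, 0.022 for RPL13, 0.0393 for RPS7, 0.0486 for RPL36A and 0.0492 for RPL29. For RPL13A and RPL22 the effect was largest in SUP-T1 (1.21 and 0.90), for RPL28, RPL14 and RPL10L in HD-MAR-2 (0.71, 0.66 and 0.99). RPL10L was near background, detected on 8 of 30 arrays. RPL39L had estimates below 0 in HD-MAR-2 and SUP-T1 (-0.37 and -0.40) and above 0 in HH (0.22). RPS7, RPL36A and RPL29 had effects near 0 in KARPAS-299 (-0.01, -0.09 and 0.11) and between -0.56 and -0.55 in HH. Groups of 3 arrays are too small for a test of single outlying arrays.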

How the results depend on the processing

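Median scaling left 6 changed members for SUP-T1, 9 for HD-MAR-2 and 0 for KARPAS-299. The average over lines then had 4 up, 3 members differed in effect between lines, and the member medians became 0.12 for HH, -0.0757 for JURKAT, 0.0694 for HD-MAR-2 and -0.16 for KARPAS-299. Taking that median over the probes above background on every array, chosen after seeing the data, gave 27 changed members for SUP-T1 (24 up), 34 for HD-MAR-2 (31 up) and 0 for KARPAS-299, and 27 up and 4 down over the 5 lines. The member medians were then 0.35 for SUP-T1, 0.38 for HD-MAR-2, 0.11 for HH, -0.0854 for KARPAS-299 and 0.15 over the 5 lines, and those of all genes 0.12 for SUP-T1 and 0.11 for HD-MAR-2. The members' median minus that of all genes was the same under both by construction (0.23 for SUP-T1, 0.27 for HD-MAR-2). The second scaling differs from the first by a constant per array, so it moves every gene of an array alike. Why the members' calls depended on the normalisation was not tested.

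A fold change of at least 2 besides the test can only lower a count. It left 1 member for SUP-T1 and 0 each for HD-MAR-2, HH and KARPAS-299. Over the 5 lines it left 0 up and 0 down, beside 0.264% of all genes. With each line fitted alone, on fewer arrays, 4 changed in SUP-T1 and 0 in KARPAS-299. The mean of all probes of a gene gave 6 changed in HH and 8 down on average. With the replicate block 0 changed in KARPAS-299 and RPL39L was not called on average (adjusted p = 0.0816) or in HD-MAR-2 (adjusted p = 0.0606), while the average counts were 11 up and 3 down. With the authors' values they were 15 up and 4 down.

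Direction turned in 5 results. RPL23A in SUP-T1 was -0.021 with median scaling (adjusted p = 0.956). RPS6 in HD-MAR-2 was 0.10 with the median over probes above background on every array (adjusted p = 0.562). The mean of all probes gave -0.21 for RPL41, -0.11 for RPS15 and -0.14 for RPS24 on average, since it includes their dimmer probes. Of 53 results for named genes 22 kept their direction and side of the threshold in all alternatives.

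Leaving out 1 array gave 7 to 12 changed members for SUP-T1 (7 without CHOEP replicate 3), 12 to 17 for HD-MAR-2, 2 to 4 for HH, 0 to 1 for KARPAS-299, 11 to 14 up and 3 to 4 down on average, and 6 to 11 that differed between lines (6 without HD-MAR-2 untreated replicate 2). The KARPAS-299 median lay between -0.00149 and 0.0346, highest without untreated replicate 2. The call of RPL39L on average was lost in 8 of these fits. Signals near background (RPL10L) and near the top of the scale limit what the arrays can show.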
